A study of Mus musculus with 6 samples.

Results

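The comparison described here was that of left ventricular myocardium from mice with chronic heart failure (CHF) after myocardial infarction and from sham-operated mice. It rested on 2 of the 6 libraries of the series, 1 for each group, and the other 4 were from hippocampus and prefrontal cortex of the same kind of mice. Genes were taken into the description when they had 100 or more uniquely mapped reads in at least 1 of the 2 ventricular pools, which held for 11870 of 35485 annotated features. Of these, 10223 reached 100 reads in both pools, 1564 in the CHF pool alone and 83 in the sham pool alone. The CHF library was a pool of RNA from 3 male C57BL/6 mice (C57BL/6N in the methods of the study) that had undergone permanent ligation of the left anterior descending coronary artery (LAD) and had a large infarct and signs of failure by the criteria of the study. The sham library was a pool of RNA from 6 male mice of the same strain that had undergone the operation without ligation. Both groups were young adults at operation and were killed 8 weeks after it, and each mouse gave the same amount of RNA to its pool. Total RNA was depleted of ribosomal RNA and sequenced from strand-marked libraries. Which zone of the infarcted ventricle (scar, border or remote muscle) gave the RNA was stated in none of the sources at hand. With 1 pooled library for each group there was no replicate check of any difference, and every interval below covers counting error only, not the spread between mice.

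When a coronary artery is closed, the muscle it feeds dies and is replaced by a scar of collagen and other matrix proteins laid down by activated fibroblasts. Macrophages clear the dead tissue, and the muscle that survives enlarges, returns in part to a fetal pattern of gene use and draws less on fat as fuel. In the mouse this fetal pattern includes a shift of the motor protein of the sarcomere, with less of the fast alpha myosin heavy chain (Myh6) and more of the slow beta chain (Myh7), and secretion of natriuretic peptides.

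The CHF library held 19873902 unique gene reads and the sham library 15693919. Sarcomere genes were among the most frequent reads in both, and Myh6 alone took 1.33% of the CHF and 2.70% of the sham reads. The feature with the most reads, listed at a second locus of Myo3a, took 8.87% of the CHF reads and 15.04% of the sham reads. Read counts were therefore scaled by TMM (trimmed mean of M values, a factor for each library that balances the bulk of the genes), after which 100 reads in the sham pool corresponded to 155 reads in the CHF pool. All ratios below are log2 ratios of TMM-scaled unique reads, CHF over sham, and a gene is said to have risen or fallen when its ratio was 0.9 or more, or -0.9 or less, which is the threshold the study used. Scaling by the library total in place of TMM would add 0.29 to every log2 ratio. Of 15 cardiomyocyte markers, 14 had 100 reads in both pools. Of 12 atrial markers, 9 had 100 reads in a pool and 7 in both, and of the 9, 2 rose and 2 fell. The atrial light chain Myl7 had 1 read in the CHF pool and 3 in the sham pool.

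Among the 10223 genes with 100 reads in both pools, 661 (6.47%) rose and 411 (4.02%) fell, with a median log2 ratio of -0.06. The higher genes thus made up 61.7% of those past the threshold, but 88.0% (1089 higher, 148 lower) when the library total was used for scaling and 87.3% (1027 higher, 150 lower) with the deposited RPKM values. Of the 1564 genes that reached 100 reads in the CHF pool alone, 740 (47.3%) rose. The other 824 crossed the limit of 100 reads with a ratio under 0.9, and 1089 of the 1564 had 50 or more sham reads, so that most of the class lay near the limit. At the other end, 8 genes had 0 sham reads and 17 had 1 to 3. Of the 83 genes with 100 reads in the sham pool alone, 76 (91.6%) fell. The direction within these 2 classes is largely fixed by how they were chosen, and it is given as a description. With the minimum set at 100 sham reads and 155 CHF reads, 809 genes were in the CHF class and 352 in the sham class. Together, 1401 of the 11870 genes (11.8%) rose and 487 (4.1%) fell.

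**Figure D1:**
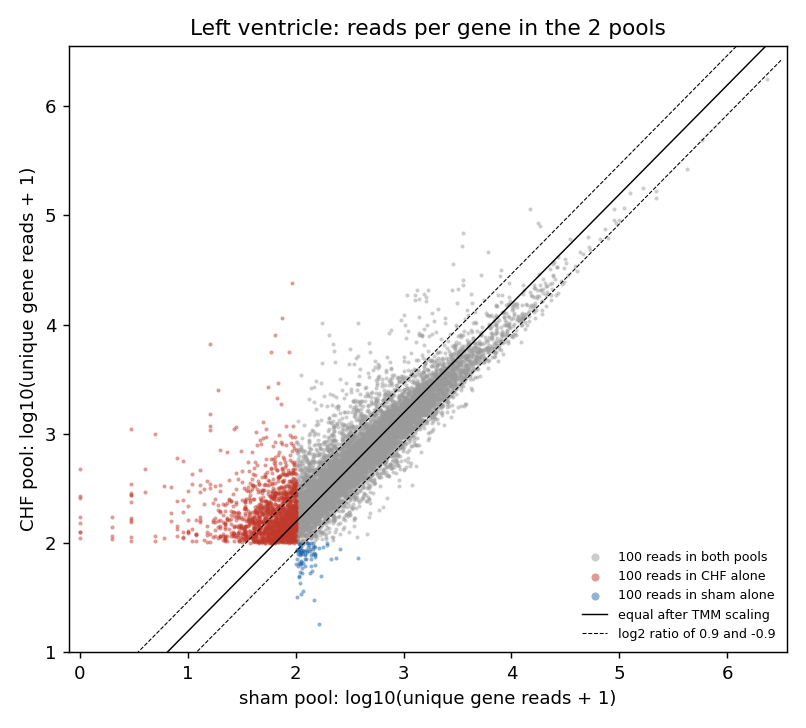
Unique gene reads of each gene in the CHF pool (vertical axis, log10 of reads + 1) and in the sham pool (horizontal axis, same scale), with genes at 100 reads in both pools in grey, in CHF alone in red and in sham alone in blue. The solid line marks equality after TMM scaling and the dashed lines a log2 ratio of 0.9 and -0.9; 740 of the 1564 red genes lie above the upper dashed line and reach down to 0 sham reads, and the 83 blue genes stay close to the limit.

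At the limit itself the classes met. Tbx18, a transcription factor of the epicardium, had 354 CHF reads and 99 sham reads (log2 ratio 1.21, 95% interval 0.88 to 1.54) and so fell in the CHF class, whereas Slc7a8, an amino acid exchanger, had 299 CHF reads and 100 sham reads (0.95, 0.62 to 1.29) and counted as measured in both. The genes that rose in the CHF class were protein coding in 94.3%, against 95.03% of the genes measured in both pools. In brain, 46.1% of them had 100 reads in all 4 libraries, as did 53.4% of the CHF class that did not rise and 84.8% of the genes measured in both ventricular pools. Of the 76 genes that fell in the sham class, 32.9% had 100 reads in all 4 brain libraries and 52.6% in none.

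In the brain, the same counting gave few genes past the threshold. In hippocampus 9 of 430 CHF-alone genes (2.09%) rose and 10 of 90 sham-alone genes (11.1%) fell, and among 11752 genes with 100 reads in both pools 3 rose (0.0255%) and 23 fell (0.196%). In prefrontal cortex none of the 30 CHF-alone genes rose, 5 of 565 sham-alone genes (0.885%) fell, and among 11321 genes in both pools 1 rose (0.00883%) and 4 fell (0.0353%). With 1 library a side no test of a difference between tissues was possible.

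The 15 genes that led the CHF class were of several kinds. Among them were the matrix genes Fmod, Comp, Cilp2, Ltbp2, Mfap4 and Col8a2, Sfrp2 and Dkk3, of families that act on Wnt signalling, the fat cell genes Cfd, Cidec and Adipoq, the mesothelial gene Upk3b, Car3, Sprr1a, and 1500015O10Rik (listed in RefSeq as Ecrg4), which had 993 CHF reads and 4 sham reads (7.32, 5.96 to 9.20). The highest ratio was that of Cfd, given with the fat cell genes. Fmod (fibromodulin, a proteoglycan that binds collagen fibrils; chromosome 1, 134037515 to 134048277, GRCm38.p1) had 6629 reads in the CHF pool, against 15 in the sham pool, a 285-fold difference after scaling (log2 ratio 8.15, 95% interval 7.43 to 8.99). Comp (cartilage oligomeric matrix protein, a thrombospondin; chromosome 8, 70373548 to 70382066) had 24080 CHF reads, the most of any gene in the class, and 92 sham reads (7.40, 7.10 to 7.71). Both genes were under the limit of 100 reads in the sham pool. Cilp (cartilage intermediate layer protein; chromosome 9, 65265180 to 65280605) had 10257 CHF reads and 174 sham reads, and at a log2 ratio of 5.25 (5.03 to 5.47) it was the gene with the highest ratio among those measured in both pools. Its relative Cilp2 had 472 CHF reads and 3 sham reads (6.66, 5.11 to 8.95). Ltbp2, a matrix protein related to the carriers of latent TGF-beta, had 8061 CHF reads and 64 sham reads (6.34), and Mfap4, a microfibril protein, 5594 CHF reads and 85 sham reads (5.41).

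Among genes measured in both pools, those with the highest ratios after Cilp were mostly genes of secreted or matrix proteins. Thbs1, a thrombospondin that can free TGF-beta (chromosome 2, 118111922 to 118127133), had 8008 CHF reads and 201 sham reads, a 25.7-fold difference (4.68, 4.48 to 4.89). Wisp2, a secreted protein of the CCN family, had 6617 CHF reads and 220 sham reads (4.28), and Col14a1, which sits on the surface of collagen fibrils, 5711 CHF reads and 224 sham reads (4.04). Fibin had 3016 CHF reads and 152 sham reads (3.68), and Abi3bp, a matrix protein, 2645 CHF reads and 138 sham reads (3.63). Loxl3, a lysyl oxidase whose gene overlaps Htra2, had 2688 CHF reads and 146 sham reads (3.57). An exception by role was Scd1, which makes monounsaturated fatty acids, with 5905 CHF reads and 316 sham reads (3.59). The lowest ratios were spread over other roles. Clcn1, the chloride channel of skeletal muscle, had 113 CHF reads and 366 sham reads (-2.33), Lrrc4b, an adhesion protein of synapses, 198 CHF reads and 597 sham reads (-2.23), and Lrrc15 329 CHF reads and 904 sham reads (-2.09). Ces1d, a carboxylesterase that acts on fats, had 503 CHF reads and 1306 sham reads (-2.01), Myo5c, an unconventional myosin, 125 CHF reads and 313 sham reads (-1.96), and Plscr5, of the scramblase family, 141 CHF reads and 345 sham reads (-1.92).

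Most measured members of the cartilage and bone list rose. Of its 25 markers, 12 had 100 reads in a pool, 10 of them in the CHF pool alone, and 11 rose, with a median log2 ratio of 5.57 beside 0.00 over all 11870 genes. Its transcription factors were at lower ratios than its matrix genes, with Sox9, the master regulator of cartilage, at 690 CHF reads and 92 sham reads (2.27) and Runx2, that of bone, at 222 CHF reads and 21 sham reads (2.77). Acan, the large proteoglycan of cartilage, had 154 CHF reads and 2 sham reads (5.63, 3.76 to 8.69). Spp1 (osteopontin, which macrophages also make) had 562 CHF reads and 8 sham reads (5.50, 4.51 to 6.72). Col2a1, the main collagen of cartilage, had 81 CHF reads and 0 sham reads, under the limit in both pools. With the sham count set at 3 reads it was 17.4-fold higher, with a lower interval limit of 3.79 in log2. Other markers of bone and cartilage, Ibsp, Bglap and Chad, had 0 unique reads in both pools, a count that leaves out reads shared with other genes. The 2 members measured in both pools were Cilp (5.25) and Alpl. Alpl did not rise, with 805 CHF reads and 534 sham reads (-0.04, -0.20 to 0.12). The median of these 2 was 2.60, and the other 10 passed the limit only through the CHF pool. In a bulk library, more or fewer cells of a type and more or less RNA per cell cannot be told apart, and this holds for every list below.

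**Figure D2:**
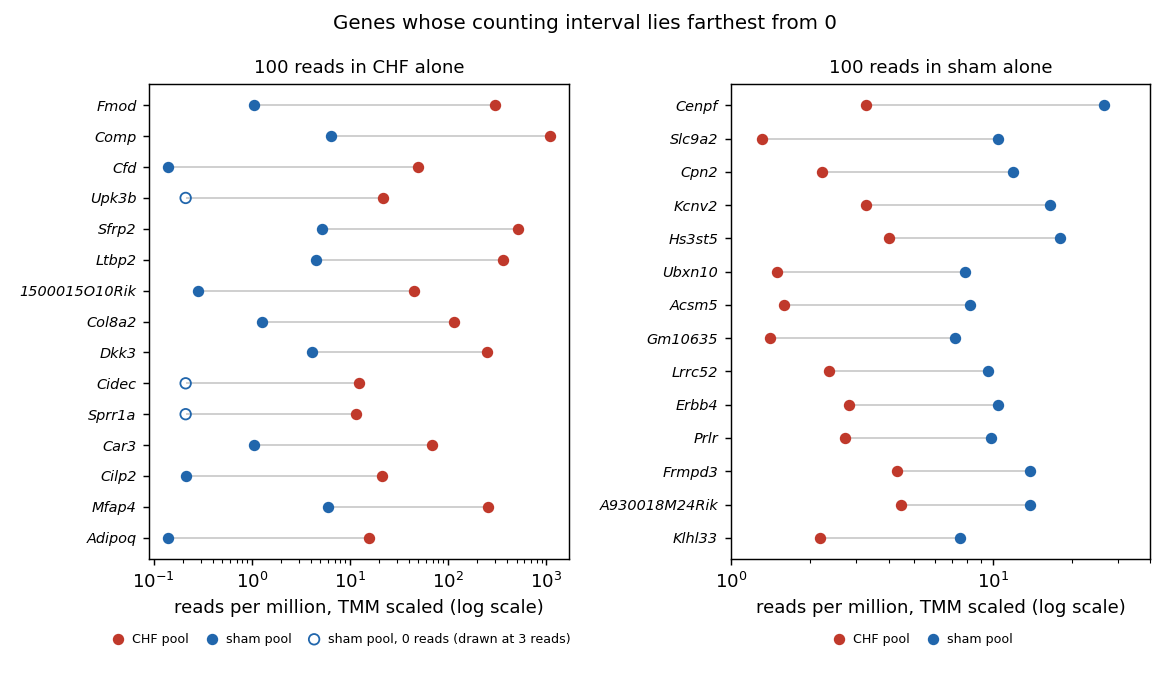
TMM-scaled CPM (reads scaled to the same library size, log axis) in the CHF pool (red) and the sham pool (blue) for genes of each class chosen from the 15 whose counting interval lies farthest from 0, on the left all 15 with 100 reads in CHF alone and on the right 14 of the 15 with 100 reads in sham alone. Open circles stand for 0 sham reads drawn at the floor of 3 reads (Upk3b, Cidec, Sprr1a). The red points on the left lie far above the blue ones, by 285-fold for Fmod, while on the right the gaps are narrower, with Cenpf 8.12-fold lower in CHF.

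Genes of activated fibroblasts rose in nearly every member measured, 13 of 14, with a median log2 ratio of 2.86, and those of resident fibroblasts in 12 of 13 with a median of 2.30. Postn (periostin, the matrix protein most used to mark activated fibroblasts; chromosome 3, 54361107 to 54391041) had 10421 CHF reads and 375 sham reads, a 17.9-fold difference (4.16, 4.01 to 4.32). Cthrc1, a secreted protein of scar fibroblasts, had 236 CHF reads and 2 sham reads (6.25, 4.38 to 9.30). Lox, which crosslinks collagen, had 2137 CHF reads and 66 sham reads (4.38), and Thbs4, a thrombospondin, 2664 CHF reads and 55 sham reads (4.97). Fap, the surface protease that gives activated fibroblasts another of their names, did not pass the threshold, at 230 CHF reads and 84 sham reads (0.82). Of the resident fibroblast genes, Col3a1 had 36049 CHF reads and 2903 sham reads (3.00), Dcn, which coats collagen fibrils, 46374 CHF reads and 6058 sham reads (2.30), and Thy1 450 CHF reads and 186 sham reads (0.64, under the threshold).

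Collagen chains were the matrix family with the most members. Of 28 chains with 100 reads in a pool, 20 (71.4%) rose, 6 of them in the CHF class. The fibril chains Col1a1 (16620 CHF reads, 1264 sham reads) and Col1a2 (19168 CHF reads, 1533 sham reads) stood at log2 ratios of 3.08 and 3.01. Larger ratios came from chains that were scarce in sham muscle: Col8a2, a short network chain, had 2512 CHF reads and 18 sham reads (6.49), Col12a1, which decorates fibrils in tendon, 1166 CHF reads and 15 sham reads (5.65), and Col11a1, a cartilage fibril chain, 171 CHF reads and 1 sham read (6.78, 4.29 to 12.10). Basement membrane chains moved less, with Col4a1 at 18775 CHF reads and 8148 sham reads (0.57) and Col4a2 at 15215 CHF reads and 7246 sham reads (0.44), both under the threshold. The chain that went the other way was Col6a6, with 93 CHF reads and 146 sham reads (-1.28), although 63.2% of its reads were unique, so that its count rests on fewer reads than the gene drew.

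Of 10 matrix metalloproteases, enzymes that cut matrix, 7 rose, and 4 of these had 100 reads in the CHF pool alone. Mmp3 (stromelysin; chromosome 9, 7445822 to 7455975) had 838 CHF reads and 64 sham reads (3.08, 2.71 to 3.47), Mmp12, the macrophage elastase, 104 CHF reads and 11 sham reads (2.61), and Mmp9, a gelatinase of leukocytes, 170 CHF reads and 22 sham reads (2.32). Mmp2, the gelatinase of fibroblasts, was already counted in sham muscle, with 8703 CHF reads and 1100 sham reads (2.35). The Adamts family of matrix proteases was mixed, with 9 of 17 higher and 2 lower. Adamtsl2 had 3457 CHF reads and 111 sham reads (4.33), whereas Adamts7, which cleaves Comp, had 495 CHF reads and 1043 sham reads (-1.71). Of the 21 integrins and integrin-like genes, receptors by which cells hold matrix, 11 rose and 1 fell. Itgbl1 had 4423 CHF reads and 175 sham reads (4.03), Itga11, a collagen receptor of fibroblasts, 844 CHF reads and 100 sham reads (2.44), and Itgb6, an epithelial chain that frees TGF-beta, 253 CHF reads and 478 sham reads (-1.55).

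Secreted antagonists of Wnt, ligands that guide growth of tissues, gave some of the highest ratios, while the ligands themselves did not. Sfrp2 (chromosome 3, 83766321 to 83774314), a secreted protein that binds Wnt, had 11443 CHF reads and 73 sham reads, a 101-fold difference (6.66, 6.33 to 7.01). Dkk3, a secreted member of the Dickkopf family (chromosome 7, 112116019 to 112159057), had 5556 CHF reads and 58 sham reads (5.95, 5.58 to 6.35). Frzb and Sfrp4, both of the same kind as Sfrp2, had 2913 CHF reads and 68 sham reads (4.79) and 329 CHF reads and 5 sham reads (5.41, 4.17 to 7.04). Of the 11 genes in the family of Frizzled receptors and Sfrp antagonists, 7 rose and 0 fell. Among the receptors Fzd1 had 1255 CHF reads and 213 sham reads (1.93) and Fzd2 551 CHF reads and 78 sham reads (2.19), whereas Fzd4 had 1011 CHF reads and 818 sham reads (-0.33). None of the 4 Wnt ligands with 100 reads passed the threshold: Wnt9a stood highest, with 475 CHF reads and 168 sham reads (0.87; 1 of the 4 passed when the library total was used for scaling), and Wnt5a lowest, with 354 CHF reads and 300 sham reads (-0.39).

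Ligands of the TGF-beta superfamily were another group with low sham counts. In the family of Bmp and Gdf ligands, which steer bone and organ growth, 6 of 7 members rose, 4 of them in the CHF class. Gdf6 had 368 CHF reads and 14 sham reads (4.08), Bmp2 161 CHF reads and 11 sham reads (3.24), and Gdf15, a stress hormone of many injured tissues, 317 CHF reads and 15 sham reads (3.77, 3.02 to 4.62). Only Bmp6 among the 7 was under the threshold, with 1038 CHF reads and 536 sham reads (0.32). In the wider TGF-beta list 12 of 20 rose, led apart from Ltbp2 by Tgfb3, with 5155 CHF reads and 377 sham reads (3.14), while Tgfb1 had 987 CHF reads and 367 sham reads (0.79, 0.62 to 0.97).

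Several markers of the surface layer of the heart were counted in the CHF library and had few or no reads in the sham library. Of 15 markers of epicardium and mesothelium present in the files, 10 had 100 reads in a pool, 8 of them in CHF alone, and 9 rose, with a median log2 ratio of 3.07 where a gene at 0 sham reads was set at a floor of 3 reads (0.80 over the 2 measured in both pools). Upk3b, a uroplakin that marks mesothelium (chromosome 5, 136038496 to 136044993), had 476 CHF reads and 0 sham reads. It was 102-fold higher at that floor, with a lower interval limit of 6.37 in log2. Lrrn4 and Krt19, a surface protein and a keratin of mesothelium, had 172 and 110 CHF reads and 0 sham reads. At the same floor they were 37.0-fold and 23.6-fold higher. Msln (mesothelin) had 275 CHF reads and 2 sham reads (6.47, 4.60 to 9.52). The transcription factor Wt1, which the epicardium and injured vessels share, was counted in the sham pool just under the limit, with 433 CHF reads and 93 sham reads (1.59, 1.26 to 1.93). Whether the surface layer was sampled to the same extent in both groups cannot be told apart from a change within it.

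Adipocyte genes formed a similar set. Cfd (adipsin, a serine protease of the complement system that fat cells secrete; chromosome 10, 79890853 to 79892656) had 1093 CHF reads and 2 sham reads, a log2 ratio of 8.46 with an interval of 6.60 to 11.51. Adipoq, which encodes adiponectin, had 348 CHF reads and 2 sham reads (6.81, 4.95 to 9.86), and Plin1, a coat protein of fat droplets, 287 CHF reads and 2 sham reads (6.53, 4.67 to 9.58). Cidec, which fuses fat droplets, had 270 CHF reads and 0 sham reads. With the sham count set at 3 reads it was 58.0-fold higher, with a lower interval limit of 5.55 in log2. These 4 markers were at 0 to 2 reads in the sham pool. Of 10 adipocyte markers 7 had 100 reads in a pool, and 4 (57.1%) rose, beside 11.8% of all genes. All 4 were in the CHF class, whose choice favours a high ratio. Of the 3 measured in both pools 0 rose and 1 fell. Pparg had 200 CHF reads and 112 sham reads (0.20), Fabp4 5575 CHF reads and 5095 sham reads (-0.50), and Lpl 61529 CHF reads and 78585 sham reads (-0.99). Lep and Retn were under 100 reads in both pools, and the brown fat marker Ucp1 had 0 unique reads in both. Car3, a carbonic anhydrase abundant in fat and in slow muscle, had 1522 CHF reads and 15 sham reads (6.03). Whether fat lay on the CHF ventricles when they were taken was not tested.

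**Figure D3:**
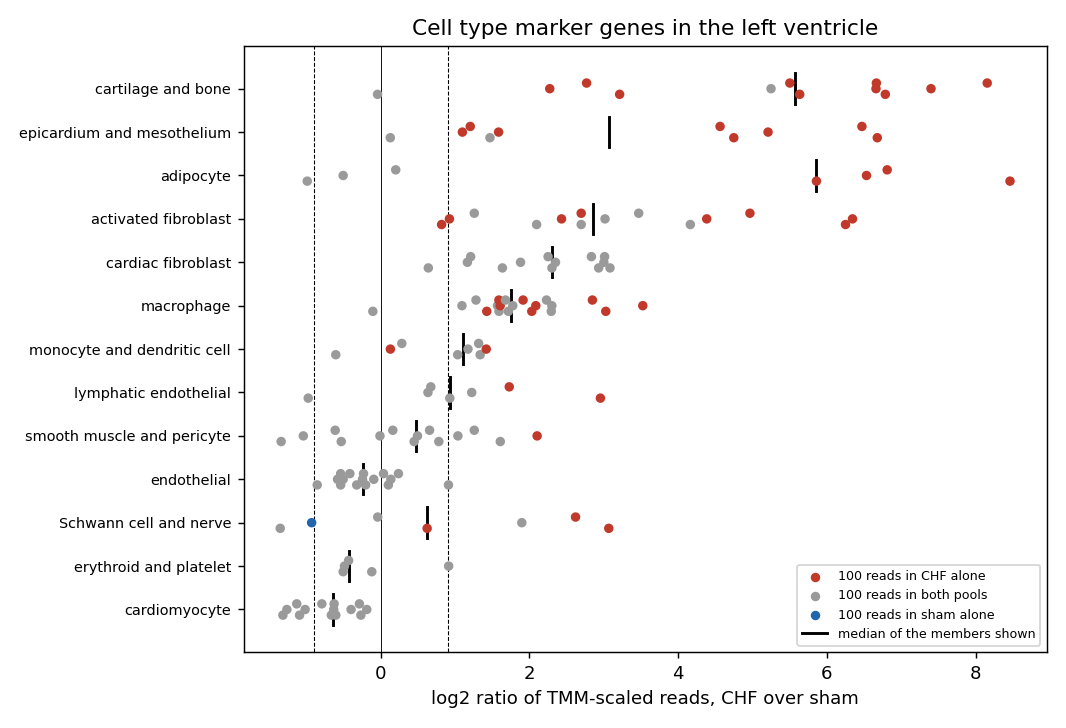
Log2 ratio of TMM-scaled reads, CHF over sham, for the marker genes of 13 cell types with 100 reads in a pool; each point is 1 gene, coloured by whether it had 100 reads in CHF alone (red), both pools (grey) or sham alone (blue), black bars are medians and dashed lines mark 0.9 and -0.9. Cartilage and bone (median 5.57), adipocyte (5.86) and epicardial (3.07) markers reach farthest to the right through their red points, and over grey points alone their medians are 2.60, -0.50 and 0.80. Genes at 0 sham reads are drawn at the floor of 3 reads, Cidec at the adipocyte median among them, macrophage markers centre on 1.75, and all 14 cardiomyocyte markers lie left of 0.

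Macrophage genes rose in 19 of 20 members, with a median log2 ratio of 1.75, and 9 of the 19 had 100 reads in CHF alone. Among the list members with high ratios were Lgals3 (galectin 3), at 928 CHF reads and 52 sham reads (3.52), and Gpnmb, at 771 CHF reads and 61 sham reads (3.03). The lipid receptor Trem2 had 279 CHF reads and 25 sham reads (2.85). Lower ratios were those of Cd68, with 439 CHF reads and 94 sham reads (1.59), and Csf1r, with 3009 CHF reads and 909 sham reads (1.09). Csf1r is the receptor of the macrophage growth factor. Cd163, a scavenger receptor of resident macrophages, stood apart at 603 CHF reads and 418 sham reads (-0.10). Few lymphocyte genes were counted: 1 of 18 T cell markers, 0 of 10 natural killer cell markers and 3 of 13 B and plasma cell markers had 100 reads in a pool, and 2 of the last 3 rose.

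Several families of receptors of innate immunity were found mostly through the CHF class. The choice of that class favours a high ratio, and it held 13.2% of all genes with 100 reads in a pool. Of 7 toll-like receptors, which sense microbes and cell debris, 6 rose, 5 of them with 100 reads in CHF alone. Tlr13 had 250 CHF reads and 23 sham reads (2.81), Tlr2 398 CHF reads and 48 sham reads (2.42, 1.98 to 2.88) and Tlr7 209 CHF reads and 33 sham reads (2.03), while Tlr3 had 408 CHF reads and 205 sham reads (0.36). Of 15 C-type lectins, which bind sugars on microbes and cells, 8 rose and all 8 were in the CHF class. The 1 lectin with 0 sham reads was Clec3a, a secreted lectin first known from cartilage, with 150 CHF reads. It was 32.2-fold higher with the sham count set at 3 reads. Clec4n (dectin 2) had 225 CHF reads and 20 sham reads (2.86). In the Ms4a family of membrane proteins 5 of 6 rose, all 5 in the CHF class, Ms4a7 having 329 CHF reads and 39 sham reads (2.44). All 5 Fc receptor genes with 100 reads rose, Fcrls with 927 CHF reads and 92 sham reads (2.70) and Fcgr3 with 610 CHF reads and 125 sham reads (1.65). Among members measured in both pools, 0 of 5 lectins (median -0.03) and 0 of 1 Ms4a gene rose. The same count was 1 of 2 for toll-like receptors and 2 of 2 for Fc receptors. Of the macrophage markers measured in both pools, 10 of 11 rose. Their part in the counts of these families was not tested.

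**Figure D4:**
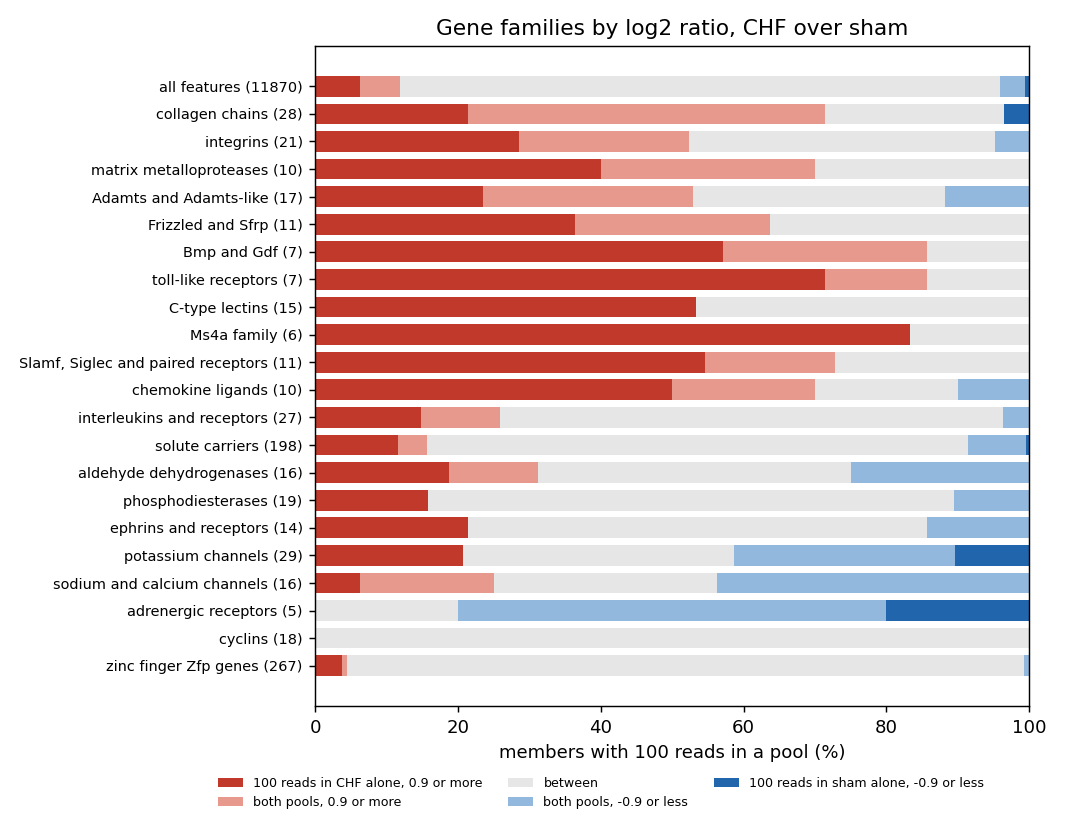
Share of the members of each gene family with 100 reads in a pool (number in brackets) by log2 ratio, CHF over sham: dark red, 0.9 or more with 100 reads in CHF alone; light red, 0.9 or more in both pools; grey, between; light blue, -0.9 or less in both pools; dark blue, -0.9 or less with 100 reads in sham alone. Red takes 11.8% of the bar of all features and blue 4.1%. Among the families drawn, red is widest in Bmp and Gdf ligands and toll-like receptors (6 of 7 members each) and in the Ms4a family (5 of 6). Of their members measured in both pools, 2 of 3, 1 of 2 and 0 of 1 rose. Fc receptors (5 of 5 rose) are not drawn. Blue is widest in adrenergic receptors (4 of 5 members) and in the ion channel families, and cyclins hold neither.

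Soluble mediators of inflammation followed. Of the 13 chemokines and chemokine receptors with 100 reads, 10 rose, 6 of them in the CHF class. Ccl8 had 161 CHF reads and 22 sham reads (2.24) and Ccr2, the receptor of blood monocytes, 386 CHF reads and 93 sham reads (1.42), whereas Cxcl12, made by vessels and stroma, had 5649 CHF reads and 5881 sham reads (-0.69). Complement genes rose in 16 of 18 members, with a median of 1.97: C3, the central component, had 25344 CHF reads and 3555 sham reads (2.20) and C2 341 CHF reads and 12 sham reads (4.20). Il33, an alarm signal kept in the nucleus of stromal cells, had 583 CHF reads and 52 sham reads (2.85, 2.44 to 3.29). Of the 27 interleukin and receptor genes 7 rose and 1 fell. The one that fell was Il15, with 290 CHF reads and 486 sham reads (-1.38, -1.59 to -1.17), and Il10ra had 450 CHF reads and 122 sham reads (1.25). In the interferon response list 9 of 15 genes rose, with a median of 1.06, among them Mx1 with 160 CHF reads and 19 sham reads (2.44). In the larger family of interferon-induced Ifi, Ifit, Oas and Gbp genes 13 of 28 rose, with a median of 0.72. Tnfrsf11b (osteoprotegerin, a decoy receptor that restrains bone resorption) had 161 CHF reads and 2 sham reads (5.70, 3.82 to 8.76). Nr4a1, a nuclear receptor switched on early by many stimuli, had 2501 CHF reads and 369 sham reads (2.13, 1.97 to 2.29).

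Of 11 natriuretic peptide and fetal sarcomere genes with 100 reads in a pool, 6 rose and 0 fell, with a median log2 ratio of 1.17. Nppa (atrial natriuretic peptide; chromosome 4, 148000746 to 148002067) had 68808 CHF reads and 3547 sham reads, a 12.5-fold difference (3.65, 3.60 to 3.69), and Nppb, the B-type peptide encoded next to it, 18959 CHF reads and 4195 sham reads (1.54, 1.49 to 1.59). Myh7 had 114364 CHF reads and 14772 sham reads (2.32) and Myh6 264369 CHF reads and 423662 sham reads (-1.31). The 2 heavy chain genes thus moved in opposite directions. The 2 genes are near-identical neighbours on chromosome 14, and 74.5% of the Myh6 reads and 63.0% of the Myh7 reads were unique, so that both ratios are uncertain by the reads that were shared. Acta1, the skeletal actin, had 15823 CHF reads and 3155 sham reads (1.69), Ankrd1, a stress protein of the sarcomere, 80055 CHF reads and 18296 sham reads (1.50), and Xirp2, which binds actin at the cell ends, 27613 CHF reads and 7888 sham reads (1.17). Between Myh6 and Myh7 lies D830015G02Rik, listed in RefSeq as the long noncoding RNA Mhrt, which overlaps Myh7. It had 338 CHF reads and 1206 sham reads (-2.47, -2.65 to -2.29), with 44.7% of its reads unique, and was picked out after its values were seen. Whether the counting used the strand of the reads was not stated, so that its reads and those of Myh7 cannot be told apart with certainty.

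Sprr1a, a small proline-rich protein that stressed heart muscle cells make, had 256 CHF reads and 0 sham reads. With the sham count set at 3 reads it was 55.0-fold higher, with a lower interval limit of 5.47 in log2. Mmp3 was the metalloprotease with the highest ratio, and Nppa the gene of the fetal pattern with the highest ratio. The promoters of these 3 genes, all with a TATA box, are printed because they cover the range of the result in muscle and matrix. Each is the 250 bases before the start that RefSeq gives (GRCm38.p6), 5′ to 3′ along the gene, with capitals for matches on either strand to the TATA box motif, spelled TATAAA, the AP-1 site of Fos and Jun, spelled TGANTCA, the site of TEAD factors, spelled CATTCC, or an E-box, spelled CACGTG (no match overlaps another). Sprr1a is on the minus strand of chromosome 3 (window 92485882 to 92486131), Mmp3 on the plus strand of chromosome 9 (7445572 to 7445821) and Nppa on the plus strand of chromosome 4 (148000472 to 148000721).
Sprr1a: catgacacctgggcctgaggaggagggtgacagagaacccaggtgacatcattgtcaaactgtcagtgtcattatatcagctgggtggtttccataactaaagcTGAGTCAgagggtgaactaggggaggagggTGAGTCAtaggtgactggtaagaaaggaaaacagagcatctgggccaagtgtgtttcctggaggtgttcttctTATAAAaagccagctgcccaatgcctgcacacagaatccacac
Mmp3: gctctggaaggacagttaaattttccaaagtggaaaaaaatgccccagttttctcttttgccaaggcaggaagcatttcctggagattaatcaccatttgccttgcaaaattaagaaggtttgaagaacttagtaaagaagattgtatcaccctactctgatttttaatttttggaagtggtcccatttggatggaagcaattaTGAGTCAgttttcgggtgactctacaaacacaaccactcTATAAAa
Nppa: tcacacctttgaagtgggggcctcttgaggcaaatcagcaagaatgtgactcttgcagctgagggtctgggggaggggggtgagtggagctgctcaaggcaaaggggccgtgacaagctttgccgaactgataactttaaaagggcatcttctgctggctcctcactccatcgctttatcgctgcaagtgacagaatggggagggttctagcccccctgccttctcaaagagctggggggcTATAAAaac
All 3 hold a TATA box close to the start, Sprr1a holds an AP-1 match at 2 places and Mmp3 at 1. A TATA box stood in 13.6% of the 22862 genes with a single listed promoter, in 6.16% of those with 100 reads in either pool, in 8.92% of those that rose in the CHF class and in 11.8% of those that rose in both pools. For AP-1 the shares were 6.96% of all, 3.94% of those with 100 reads, 8.67% of the CHF class that rose and 5.38% of those that rose in both pools. Of genes that fell in both pools 7.27% held a TATA box and 5% an AP-1 match. Of the 33 genes of the sham class that fell and had a single promoter, 15.2% held a TATA box and 0% an AP-1 match. These shares describe letters in the window and do not show that a factor was bound.

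Of 17 potassium channel genes known from the ventricle, 11 fell and 1 rose, with a median log2 ratio of -1.08 (7 fell when the library total was used for scaling). Kcnd2 and Kcnip2, pore and partner of the fast transient outward current that shortens the mouse action potential, had 171 CHF reads and 475 sham reads (-2.11, -2.37 to -1.85) and 509 CHF reads and 1145 sham reads (-1.80, -1.96 to -1.65). Kcnv2 (chromosome 19, 27322619 to 27337179), a silent subunit that modifies other channels, was in the sham class with 72 CHF reads and 234 sham reads, 5.04-fold lower (-2.33, -2.74 to -1.95). Kcnj3, an acetylcholine-gated channel, had 257 CHF reads and 701 sham reads (-2.08), and Kcnj2, which sets the resting potential, 790 CHF reads and 1325 sham reads (-1.38). The channel gene of this list that rose was Kcne1, a partner subunit of Kcnq1, with 156 CHF reads and 52 sham reads (0.95). Other potassium channel genes rose by more. Kcnma1, the large calcium-activated channel of smooth muscle, had 193 CHF reads and 8 sham reads (3.96, 2.95 to 5.19), Kcnj15 385 CHF reads and 28 sham reads (3.15), and the accessory subunit Kcne4 365 CHF reads and 44 sham reads (2.42). Over the whole family of 29 potassium channel genes 6 rose and 12 fell (8 and 8 with the library total). These were 20.7% and 41.4%, beside 11.8% and 4.1% of all genes. All 6 that rose were in the CHF class, whose choice favours a high ratio, and 3 that fell were in the sham class. Of the 19 measured in both pools 0 rose and 9 fell. Of 16 sodium and calcium channel genes 4 rose and 7 fell (5 and 4 with the library total). Scn4b, a sodium channel partner, had 376 CHF reads and 913 sham reads (-1.91) and Scn7a, which glia and stromal cells carry, 2382 CHF reads and 589 sham reads (1.38).

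Receptors of adrenaline and noradrenaline fell in 4 of the 5 members measured. Adra1a had 229 CHF reads and 491 sham reads (-1.73, -1.97 to -1.50), Adra1b 575 CHF reads and 1022 sham reads (-1.46), and Adrb1, the main beta receptor of heart muscle, 217 CHF reads and 321 sham reads (-1.20). Adra1d was in the sham class, with 84 CHF reads and 115 sham reads (-1.09, -1.51 to -0.67). With the library total in place of TMM, 3 of the 5 fell. Of 19 phosphodiesterases, which break down the second messengers of such receptors, 3 (15.8%) rose and 2 (10.5%) fell, beside 11.8% and 4.1% of all genes. The other 14 stayed under the threshold. All 3 that rose were in the CHF class, whose choice favours a high ratio, and of the 13 measured in both pools 0 rose. Pde1a had 592 CHF reads and 77 sham reads (2.31) and Pde3b 355 CHF reads and 64 sham reads (1.84), whereas Pde3a, the form of heart muscle that inhibitors used in heart failure act on, had 792 CHF reads and 1300 sham reads (-1.35). Calcium handling genes fell in 6 of 17 (2 with the library total), among them the pump of the sarcoplasmic reticulum, Atp2a2, with 143098 CHF reads and 220981 sham reads (-1.26), and the release channel Ryr2, with 18585 CHF reads and 26180 sham reads (-1.13). Pln, which restrains that pump, had no unique reads in either pool, and its total reads, shared ones included, were 975 in CHF and 1856 in sham. No serotonin receptor gene of 14 reached 100 reads in either ventricular pool, and the serotonin transporter Slc6a4 had 26 CHF reads and 7 sham reads.

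Most genes for the use of fat and branched-chain amino acids as fuel had ratios below 0, many of them close to the threshold. Of 25 genes of fatty acid oxidation, 17 fell and 0 rose, with a median log2 ratio of -1.02, and 4 fell when the library total was used for scaling (median -0.73). Acaa2, the last enzyme of the spiral, had 6884 CHF reads and 12212 sham reads (-1.46). Ucp3, an uncoupling protein of muscle mitochondria, had 471 CHF reads and 921 sham reads (-1.60). Cpt1a, the liver form of the entry step, had 1936 CHF reads and 1270 sham reads (-0.02). The related gene Cpt1b had no unique reads in either pool. Its total reads, shared ones included, were 592 in CHF and 665 in sham (-0.79, -0.95 to -0.63). In the breakdown of branched-chain amino acids 8 of 18 fell (2 with the library total), led by Ppm1k, the phosphatase that turns the pathway on, with 1434 CHF reads and 2774 sham reads (-1.58). In the tricarboxylic acid cycle 3 of 19 fell and in the nuclear-encoded respiratory chain 3 of 35, and with the library total 0 of either. Of all genes 4.1% fell. Yet all 19 and all 35 had ratios below 0, with medians of -0.81 and -0.71 (-0.51 and -0.41 with the library total). Cardiomyocyte markers ran in parallel, with 5 of 14 lower, a median of -0.65 (-0.35 with the library total) and a summed level of 49252 TMM-scaled CPM in CHF and 90321 in sham. How far the fuel and channel genes moved beyond the share of muscle RNA in the pools was not tested.

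Sugar metabolism showed single genes with large ratios. Pfkfb1 (chromosome X, 150589921 to 150643860), which makes and breaks down the signal that drives glycolysis, had 120 CHF reads and 453 sham reads, 5.85-fold lower (-2.55, -2.85 to -2.26), the lowest ratio among genes measured in both pools. Fbp2, the muscle form of the opposing enzyme fructose bisphosphatase, had 189 CHF reads and 491 sham reads (-2.01). The platelet form of phosphofructokinase, Pfkp, had 3176 CHF reads and 972 sham reads (1.08). Over the glycolysis list, 2 of 22 (9.09%) rose and 4 (18.2%) fell, beside 11.8% and 4.1% of all genes.

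The sham class was a small and varied set. Among its lowest ratios was that of Cenpf (chromosome 1, 189640606 to 189688086), a large protein that in dividing cells sits on the kinetochore, with 72 CHF reads and 377 sham reads, 8.12-fold lower (-3.02, -3.41 to -2.65). Of 30 mitosis genes 26 were under 100 reads in both pools. The 3 others had 100 reads in the CHF pool alone, so that the choice of class favours a high ratio, such as Top2a, which untangles DNA, with 161 CHF reads and 35 sham reads (1.57) and Mki67, the usual mark of dividing cells, with 207 CHF reads and 68 sham reads (0.97). Slc9a2, a sodium-hydrogen exchanger known from gut, had 29 CHF reads and 148 sham reads (-2.98), Cpn2, a subunit of carboxypeptidase N, 49 CHF reads and 170 sham reads (-2.43), and Hs3st5, which modifies heparan sulfate, 88 CHF reads and 255 sham reads (-2.17). The class also held 2 receptors of growth factors and hormones: Erbb4, the neuregulin receptor, had 62 CHF reads and 149 sham reads (-1.90) and Prlr, the prolactin receptor, 60 CHF reads and 139 sham reads (-1.84). Further leading genes of the sham class were Ubxn10 (33 CHF reads, 111 sham reads, log2 ratio -2.38), the acyl-CoA synthetase gene Acsm5 (35 CHF reads, 116 sham reads, -2.36), Gm10635 (31 CHF reads, 102 sham reads, -2.35) and the channel partner Lrrc52 (52 CHF reads, 136 sham reads, -2.02). Klhl33 had 48 CHF reads and 106 sham reads (-1.78), Frmpd3 95 CHF reads and 196 sham reads (-1.68) and A930018M24Rik 98 CHF reads and 196 sham reads (-1.63). The sham class had no gene at 0 CHF reads.

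Replication genes gave a partial picture beside mitosis. Of 17 with 100 reads in a pool, 9 rose, 7 of them in the CHF class, with a median log2 ratio of 0.96. Of all genes 11.8% rose. Over the 7 measured in both pools 2 rose and the median was 0.36. The other 10 passed the limit through the CHF pool alone, so that the choice of class favours a high ratio. The helicase gene Mcm3 had 275 CHF reads and 72 sham reads (1.30, 0.92 to 1.70) and Rrm2, which makes DNA building blocks, 158 CHF reads and 38 sham reads (1.42). None of the 18 cyclin genes with 100 reads passed the threshold in either direction.

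Transporters and other enzymes held single genes that the family counts hide. Of 198 solute carriers 31 (15.7%) rose and 17 (8.59%) fell, beside 11.8% and 4.1% of all genes, and with the library total 42 rose and 7 fell. Slc6a7, a proline transporter known from brain, had 598 CHF reads and 7 sham reads (5.78, 4.73 to 7.10), and Slc1a5, a glutamine transporter, 4311 CHF reads and 574 sham reads (2.28). Dio2, which turns thyroxine into active thyroid hormone, had 1155 CHF reads and 27 sham reads, a 27.6-fold difference (4.79, 4.24 to 5.39). Of 16 aldehyde dehydrogenases 5 rose and 4 fell, and the 3 that make retinoic acid all rose: Aldh1a1 had 1695 CHF reads and 248 sham reads (2.14), Aldh1a3 193 CHF reads and 28 sham reads (2.15) and Aldh1a2 206 CHF reads and 62 sham reads (1.10). Cyp26b1, which breaks retinoic acid down, had 329 CHF reads and 600 sham reads (-1.50). Of 14 ephrins and ephrin receptors, which cells use to sort from each other, 3 (21.4%) rose and 2 (14.3%) fell, with a median of 0.06. All 3 that rose were in the CHF class, whose choice favours a high ratio, and of the 10 measured in both pools 0 rose. Ephb2 stood at 186 CHF reads and 6 sham reads (4.32, 3.17 to 5.79) and Epha4 at 682 CHF reads and 1447 sham reads (-1.72). Zinc finger genes of the Zfp series stayed near the median of all genes: 52 of 267 were in the CHF class, yet 12 of the 267 rose and 2 fell, with a median of -0.03.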

How the data were processed

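RNA sequencing of left ventricular myocardium was analysed for 1 CHF pool (3 mice) and 1 sham pool (6 mice). The authors mapped single reads to the mouse genome GRCm38.p1 with CLC Genomics Workbench (version not given in the sources used here) and deposited, for each library, the count of unique, total and exon reads per gene. The deposited RPKM values divide reads by a listed length that is the span of the gene for 99.7% of features with a length, and 0 for features without one, so that they were kept as an alternative. Further deposited tables repeat the RPKM values beside the authors' log2 fold columns of the same comparisons, and were not used.

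Unique gene read counts were scaled by TMM (edgeR 4.0.16 in R 4.3.3) within each pair of libraries. The log2 ratio, CHF over sham, was called at 0.9 or more and -0.9 or less. Its 95% interval is the exact Clopper-Pearson interval of the CHF share of both counts, and a count of 0 was set to a floor of 3 reads in that library. No test between conditions was possible with 1 library a side. The computation was tested on simulated data. Depth was 19873902 (CHF) and 15693919 (sham) unique reads.

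The 39 gene lists (20 of cell types, 19 of pathways) and 62 families set by symbol were chosen with earlier results of these data known, as were the genes described. Named were the 12 highest and 12 lowest ratios with 100 reads in both pools, the 15 genes of each single-pool class whose interval lay farthest from 0, and, of lists and families, up to 5 members past the threshold in each direction with its most abundant member and up to 3 single-pool members, and genes the study measured, all with 80% or more unique reads except Myh6 and Myh7. Members outside this rule (under the threshold, under 100 reads or with more shared reads) were picked after their values were seen. Not every list or family member that met this rule is described, and a few genes that met it are not reported here. Of 54 named leaders, 2 overlap another feature with 100 reads. RefSeq names matched 11741 of the 11870 genes by symbol or synonym. Alternatives were DESeq2 1.42.0 size factors, library totals (CPM), TMM without the 10 features with the most reads, deposited RPKM, total or exon reads, minimums of 1, 50 and 200 reads and a depth-matched minimum, thresholds of 0.8 and 1.0, features with 80% unique reads, and features with a listed length. Tables and plots were made with Python 3.11.15, numpy 2.4.6, pandas 2.3.3, scipy 1.17.1 and matplotlib 3.10.9.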

Additional observations from a re-analysis of the deposited data

How the results depend on the processing

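No paired analysis was possible because each group had 1 pooled library, and for the same reason no library could be left out. Ratios of single genes were recomputed for the leading genes and some genes the study measured. This was done with DESeq2 size factors, library totals and, where a value could be formed, the deposited RPKM. Size factors and library totals move every ratio by the same amount, -0.02 and 0.29, so that no gene past the threshold could change sign. With the deposited RPKM, whose median shift was 0.27, none of them did. The other alternatives were applied to counts of genes and not to the ratios of single genes. Among genes with 100 reads in both pools, 661 rose, and 1089 did so with library totals, 1027 with the deposited RPKM, 421 with a minimum of 200 reads and 2934 with a minimum of 1 read. The 411 genes that fell became 148 with library totals, 150 with RPKM and 1337 with a minimum of 1 read. The depth-matched minimum gave 809 genes in the CHF class in place of 1564 and 352 in the sham class in place of 83, and a minimum of 1 read gave 803 in the sham class. Past the threshold were 188 CHF-class genes at a minimum of 1 read in place of 740, and in the sham class 41 with RPKM and 125 with the depth-matched minimum in place of 76. The other 77 values of this kind stayed within 1.5 times. With DESeq2 size factors the counts in both pools were 636 higher and 439 lower. At minimums of 50, 200 and 1 read the CHF class held 1390, 1901 and 2011 genes, so that of the minimums tried the depth-matched one moved its size by over 1.5 times. The number of genes that fell moved with the scaling and with the minimum.

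Depth limits the low side of every large ratio. In 25 genes of the CHF class the sham count was 0 to 3 reads. Their ratios span intervals of several log2 units or, at 0 sham reads, rest on the floor of 3 reads without an upper interval limit. Genes whose reads were all shared are invisible to unique counts: 195 features with no unique reads in either pool had 100 or more total reads in 1 of them. The spread between mice was not measured.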

Other observations

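Clock genes were spread around 0 with a low tail. Of 15 genes of the circadian clock, 4 fell and 0 rose (2 fell and 1 rose with library totals). Dbp, a clock output factor that overlaps Sphk2, had 214 CHF reads and 651 sham reads (log2 ratio -2.24), Hlf, a related factor, 319 CHF reads and 475 sham reads (-1.21), and Per3 476 CHF reads and 644 sham reads (-1.07), while the core factor Arntl had 1170 CHF reads and 436 sham reads (0.79). The hour at which the hearts were taken was stated in none of the sources at hand.

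Endothelial markers stayed near the median of all genes, with 1 of 16 past the threshold and a median of -0.24 (0.06 with library totals). Vwf, the clotting factor of larger vessels, had 3836 CHF reads and 1314 sham reads (0.91), Pecam1, found on all vessels, 4885 CHF reads and 3728 sham reads (-0.24), and the fatty acid carrier Cd36 25020 CHF reads and 29124 sham reads (-0.85). Smooth muscle and pericyte markers split, with 4 of 14 higher and 2 lower: Tagln, a contractile gene, had 2214 CHF reads and 468 sham reads (1.61), and Abcc9, a channel subunit that pericytes and heart muscle share, 4614 CHF reads and 7514 sham reads (-1.34). Of 7 lymphatic markers 4 rose and 1 fell, with a median of 0.93 (6 rose and 0 fell with library totals). Pdpn, which activated fibroblasts and epicardium also carry, had 517 CHF reads and 43 sham reads (2.95), and Prox1, a transcription factor of lymphatic vessels that heart muscle also expresses, had 915 CHF reads and 1158 sham reads (-0.97).

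Forkhead factors were counted in 15 members, of which 4 (26.7%) rose, beside 11.8% of all genes. All 4 were in the CHF class, whose choice favours a high ratio, and of the 11 measured in both pools 0 rose. Foxp2 had 299 CHF reads and 55 sham reads (1.81) and Foxs1 267 CHF reads and 57 sham reads (1.59). Foxc2 had 176 CHF reads and 40 sham reads (1.50) and Foxc1 227 CHF reads and 63 sham reads (1.22). In the Sox family Sox5, a partner of Sox9 in cartilage, had 216 CHF reads and 25 sham reads (2.48). Plasma cell genes were few, with Igj, the joining chain of secreted antibodies, at 328 CHF reads and 17 sham reads (3.64). Ighm, the constant region of IgM, had no unique reads, and its total reads were 794 in CHF and 119 in sham.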
